A study of Mus with 12 samples.

Results

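Of 12 mouse liver tumour profiles, 4 held far more mRNA of hepatocyte genes than the other 8. The 12 were ranked by the mean log2(normalized count + 1) of 9 genes, Tdo2, Hsd11b1, Ces3a, Fbp1, Serpina1a, H2-Q10, Hc, Ghr and Aqp9, and the 4 highest were set against the 8 others. The 4 profiles were thus selected by the measured values, so every difference between them and the 8 is a description with no test. The 4 were, from the highest score down, Anti PDL1 2, Anti CTLA4 2, Anti CTLA4 1 and Anti PDL1+CTLA4 2, and 4 values in a sentence below always follow that order.

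The series treated mice with MYC-driven hepatocellular carcinoma (MYC-HCC in the labels) with antibodies that block the immune checkpoints PDL1 or CTLA4. The 4 groups of 3 mice received a control IgG (Ctrl IgG), an antibody to PDL1 (Anti PDL1), an antibody to CTLA4 (Anti CTLA4) or both (Anti PDL1+CTLA4), and all 12 animals carried the MYC-HCC tumour. The labels used here give no strain, age, dose, time or way in which MYC was expressed, and do not say how the tissue was cut. RNA had been extracted from FFPE (formalin-fixed, paraffin-embedded) tumour tissue and was read with NanoString's mouse IO360 panel, which counts fluorescent barcodes hybridized to the transcripts of 770 genes without amplification, and 1 profile (a library here) comes from 1 mouse.

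Hepatocytes make most plasma proteins and carry the enzymes of gluconeogenesis, amino acid breakdown and steroid and lipid handling. Hepatocellular carcinomas arise from hepatocytes and retain this programme to a varying degree, while their dividing cells express genes of DNA replication and mitosis. MHC class I molecules display peptides to CD8 T cells, and interferons raise the expression of the genes that make and load those peptides. In bulk RNA, fewer cells of a type and less RNA per cell cannot be told apart. Nor can RNA of non-tumour hepatocytes be told apart here from that of tumour cells that express hepatocyte genes.

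The deposited values are normalized barcode counts: each library's counts were multiplied by 1 factor, and low values were replaced by a floor of 20. The factor could be read back from the values, because the values above the floor were whole multiples of it. It was 2.10, 2.62, 2.25 and 1.79 in the 4 libraries and 0.562 to 1.23 in the 8 others, with no overlap. Recovered counts, the values divided by the factor, totalled 439149 to 782063 in the 4 and 480282 to 864464 in the 8. In the 4 libraries 144 to 210 genes lay at the floor, against 49 to 137 in the 8. The highest of the 8 negative probes read 18 to 30 counts in the 4 libraries and 15 to 25 in the 8. The mean log2 value of 20 housekeeping genes was 9.07 in 9 libraries and 9.03 to 9.06 in the other 3, all among the 4, so the values are levels relative to housekeeping mRNA.

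The score was 14.31, 14.13, 13.28 and 12.67 in the 4 libraries. Just below the threshold stood Anti PDL1 3, at 11.64, and the remaining 7 libraries lay between 9.56 and 10.67. The gap of about 1 log2 unit between the lowest of the 4 and Anti PDL1 3 was similar to the gap between Anti PDL1 3 and the next library. Of the 3 IgG libraries 0 were among the 4, against 1 of 3 under anti-PDL1, 2 of 3 under anti-CTLA4 and 1 of 3 under the combination. Each treated group therefore held libraries on both sides. The same 4 libraries came first when each of the 9 genes was used alone, when the genes were scaled to an SD of 1, when counts were expressed as shares of each library's total, and when other hepatocyte genes on the panel replaced the 9.

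**Figure D1:**
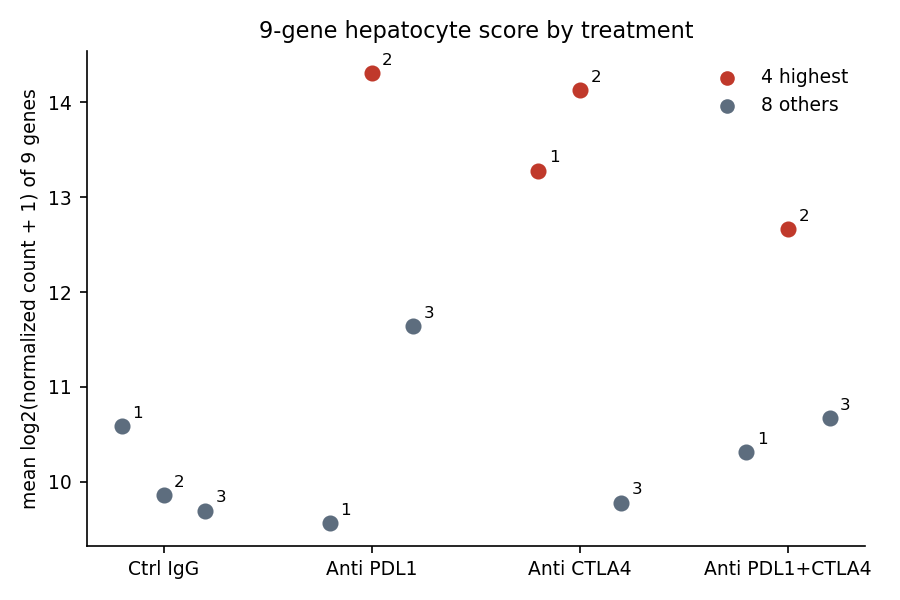
The 9-gene score of each library, as mean log2(normalized count + 1), by treatment group, with the replicate number beside each point. The 4 highest libraries (red) lie between 12.67 and 14.31 in the 3 antibody groups, and the 3 IgG libraries lie between 9.70 and 10.59.

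Among the 9 genes, Tdo2, which opens the breakdown of tryptophan, read 15151, 8349, 5051 and 3575 normalized counts in the 4 libraries. In the 8 others its lowest, median and highest values were 184, 390 and 2024. The highest of the 8 was Anti PDL1 3, here as for each of the other 8 genes. Serpina1a, which encodes the plasma protease inhibitor alpha-1-antitrypsin, read 82990, 99914, 51293 and 26286, against 2634 to 12194 with a median of 5586. Fbp1, an enzyme of gluconeogenesis, read 43882, 53252, 20724 and 13853, against 976 to 6287 with a median of 2051. In these 3 genes Anti PDL1 2 and Anti CTLA4 2 were on top, the first highest for Tdo2 and the second for Serpina1a and Fbp1, and Anti PDL1+CTLA4 2 was lowest of the 4.

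The growth hormone receptor gene Ghr read 13853, 12761, 6789 and 4744, against 717 to 2708 with a median of 1162. Hsd11b1, which regenerates active glucocorticoid, read 24467, 16625, 9608 and 7388, against 490 to 3339 (median 783). Ces3a, a carboxylesterase, read 23161, 21425, 13205 and 7625, against 510 to 3342 (median 959.7). No value of the 4 came within the range of the 8 for any of these genes. H2-Q10, a secreted MHC class I chain of liver, read 51441, 37006, 20967 and 15854, against 1600 to 6302 (median 3350.1). Aqp9, a glycerol channel, read 6232, 5824, 3970 and 1995, against 213 to 1119 (median 409.8). Hc, which encodes complement component C5, read 4177, 4386, 2482 and 1877, against 369 to 1023 (median 656). Over the 9 genes the ratio of the geometric means of the 4 and the 8 ran from 4.75-fold for Hc to 15.1-fold for Tdo2. On recovered counts with no scaling, the 4 remained above the 8 for 8 of the 9 genes, and Hc overlapped. The 9 genes together took 10.1 to 20.4% of all recovered counts in the 4 libraries, against 1.85 to 6.03% in the 8.

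Hepatocyte genes outside the 9 describe the 4 further. They are no independent check of the label, since genes expressed together with the 9 would follow the ranking. A list of 20 hepatocyte genes outside the 9 had 9 on the panel. Of these, 7 were higher in every one of the 4 libraries than in all 8 others (77.8%), and 0 were lower. The share was 25.8% of the 761 panel genes outside the 9, and 36.5% of those above the floor in all 12 libraries. After median scaling and after division by each library's total count 5 of the 9 were higher, where 79 and 37 of the 761 panel genes were. The median difference of the 9 was 1.99 log2 units (4 minus 8), and it was 1.43 and 0.95 under those scalings. Apoe, which encodes a lipoprotein component, read 455655, 307275, 189533 and 146810, against 29255 to 87838 with a median of 42096. It alone took 17.9 to 27.7% of the recovered counts of the 4 libraries, against 6.02 to 13.8% of the 8. Arg1, the urea cycle arginase, which myeloid cells can also express, read 22549, 19837, 10431 and 9263, against 962 to 4059 (median 1605). Prlr, the prolactin receptor, read 4059, 1751, 1623 and 1086, against 76.9 to 606 (median 135). The 4 libraries were above the 8 for all 3 genes under the 4 scalings described below.

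Egfr, the receptor of epidermal growth factor, was also higher in each of the 4, in another order, at 2736, 12042, 6623 and 2485 against 143 to 1015 (median 479). Glul, the glutamine synthetase of hepatocytes around the central vein, read 13044, 17024, 15172 and 6723, against 3018 to 4987 (median 4217). The values of Glul did not overlap under the authors' scaling and overlapped under the 3 others. Glud1, glutamate dehydrogenase, differed by 1.47 log2 units and Fcgrt, the neonatal Fc receptor, by 1.99, both chosen after their values were seen. Glud1 overlapped after median scaling. Got1, an aspartate aminotransferase also chosen after its values were seen, read 4423, 3360, 1843 and 2666, against 1616 to 2337 (median 1969), and overlapped.

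**Figure D2:**
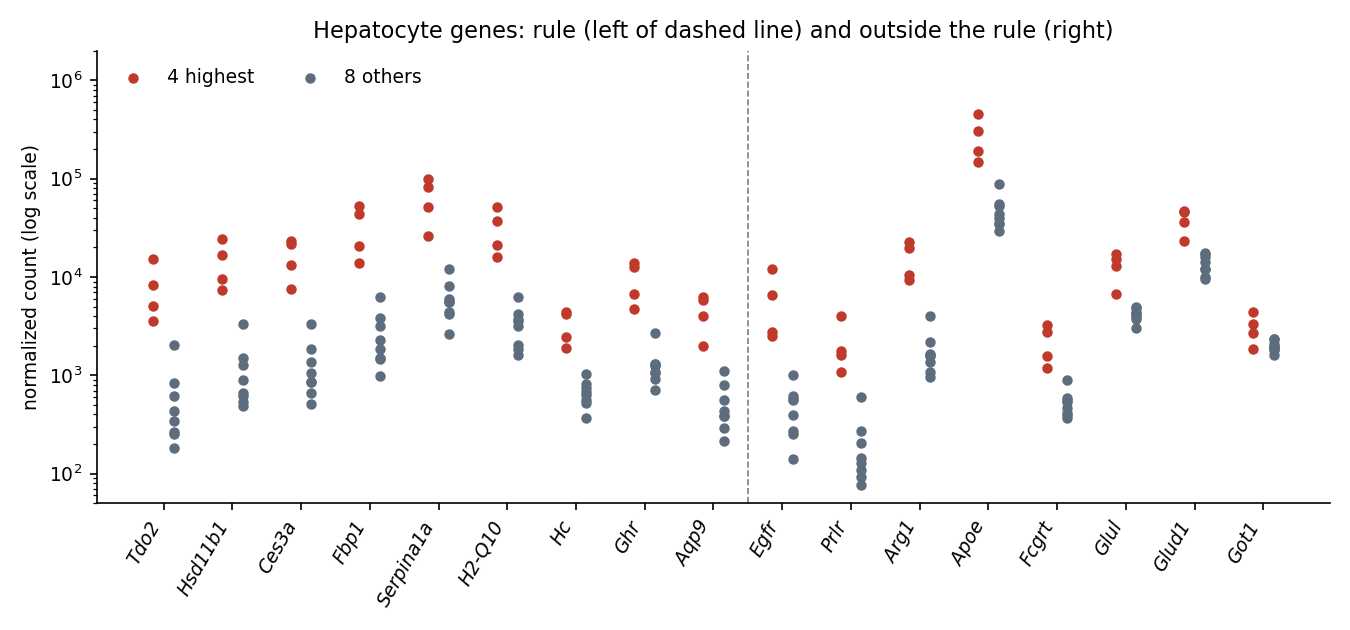
Normalized counts (log axis) of the 9 genes that ranked the libraries (left of the dashed line) and of 8 other hepatocyte genes on the panel (right), with the 4 highest libraries in red and the 8 others in grey. The 2 sets of points are apart for all 9 genes on the left and for 7 of the 8 on the right, and overlap for Got1.

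Over the whole panel, the scaling set whether the 4 libraries had more genes above the 8 others or more below them. More lay above under the authors' scaling and more below under the 3 alternatives given here. Of the 761 genes outside the 9, 196 were higher in each of the 4 libraries than in all 8 others (25.8%) and 39 were lower (5.12%), counting a floor value as anything up to the limit its factor allows. The median difference over the 761 genes was 0.31 log2 units, and over the 510 that lay above the floor in all 12 libraries it was 0.72. With every library scaled to the same median instead, 79 genes were higher and 85 lower, so the higher genes made up 48.2% of both in place of 83.4%. With each recovered count taken as a share of its library's total, an alternative added after the data were seen (total scaling here), 37 were higher and 138 lower. On recovered counts with no scaling, also added later, 10 were higher and 174 lower. The 39 lower genes were lower under all 4 of these scalings, and 10 of the 196 were higher under all 4. The 3 alternatives each place the 4 libraries lower relative to the 8 than the authors' scaling does. Scaling to the mean of the housekeeping genes, a planned setting not counted among the 4, gave 200 higher and 36 lower genes. Not all of the 39 were thus lower under it.

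**Figure D3:**
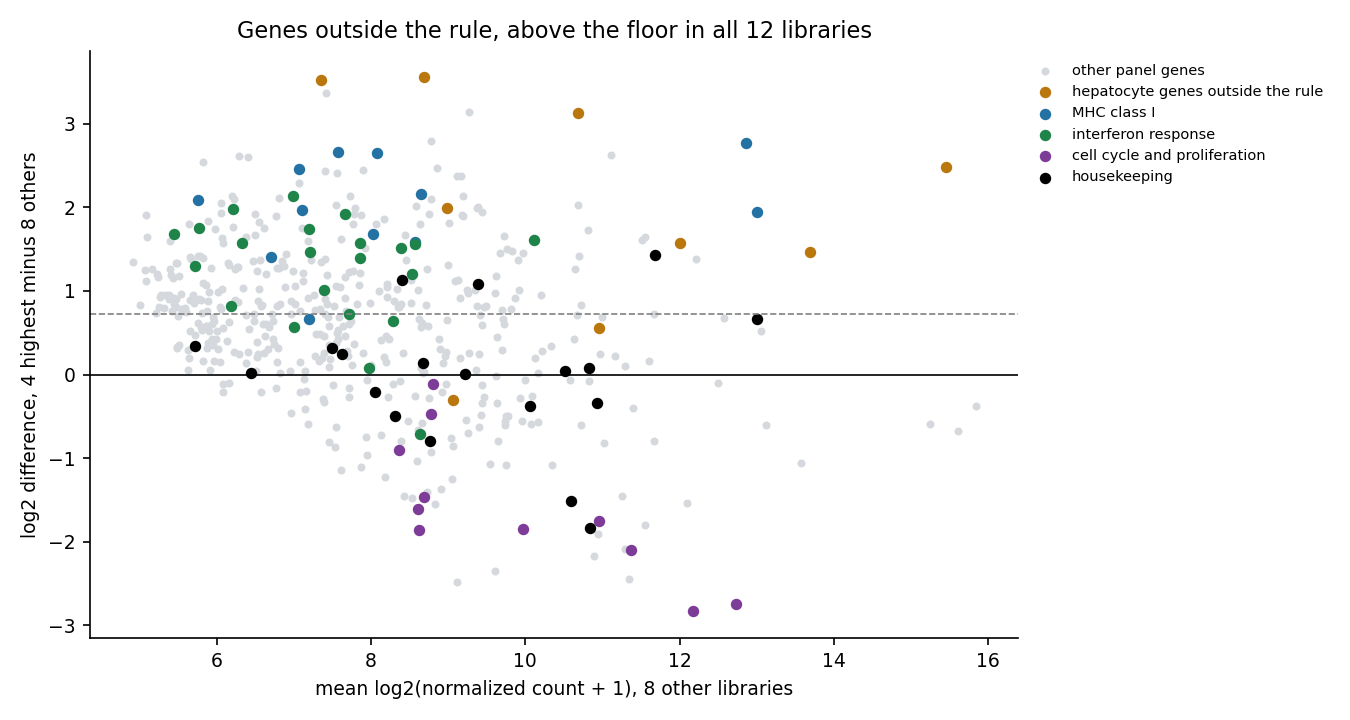
Difference in mean log2(normalized count + 1) between the 4 libraries and the 8 others (vertical) against the mean in the 8 (horizontal), for the 510 genes outside the 9 that lay above the floor in all 12 libraries. The dashed line marks the median difference of 0.72; most hepatocyte, MHC class I and interferon-response genes lie above it and cell cycle genes lie below 0.

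The 10 genes that were higher under all 4 scalings were Apoe, Arg1, Egfr and Prlr, described above, with Cd1d1, Cxcl12, Fcgr2b, Palmd, Tymp and Vegfa. Tymp, thymidine phosphorylase, read 2868, 2848, 1347 and 878, against 80.5 to 379 (median 179). Cd1d1, which presents lipids to natural killer T cells, read 9621, 7328, 5161 and 2383, against 358 to 1161 with a median of 589. Cxcl12, a chemokine that binds CXCR4, read 17393, 18034, 14900 and 7331, against 1510 to 4468 (median 1980.2). All 3 ran in parallel with the 9 genes, in that Anti PDL1+CTLA4 2 was the lowest of the 4 and Anti PDL1 3 the highest of the 8. Fcgr2b, the inhibitory Fc gamma receptor, which liver sinusoidal endothelium carries besides B and myeloid cells, read 4038, 4929, 2922 and 1488, against 277 to 828 (median 412). Vegfa, the main growth factor of blood vessels and a hypoxia gene, read 3215, 3906, 2639 and 1330, against 329 to 763 (median 422). Palmd, palmdelphin, had lower levels, at 777, 714, 454 and 276 against 49.7 to 162 (median 84.2). In all 6 genes the lowest of the 4 libraries was 1.64 to 2.32 times the highest of the 8 on the normalized scale. Pla1a, a phospholipase, read 811, 236, 254 and 244, against 25.3 to 140 (median 53.6). Of the 4 scalings, it was higher under the authors' and the median scaling alone.

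Genes of the cell cycle were lower in the 4 libraries. Of 19 measured members of a list of cell cycle genes, 10 were lower in each of the 4 than in all 8 others (52.6%, against 5.12% of the panel), 0 were higher, and all 19 had the lower mean in the 4. The median difference was -1.85 log2 units, and it was -2.42 after median scaling and -2.89 after total scaling. Ube2c, the ubiquitin-conjugating enzyme of the anaphase-promoting complex, read 416, 134, 1245 and 2565, against 4007 to 6185 with a median of 4377. Birc5, which encodes the mitotic protein survivin, read 427, 171, 3383 and 4206, against 5038 to 10248 with a median of 6420. In both genes the values of the 4 spread far more than those of the 8, and the libraries with the highest hepatocyte score had the lowest levels. By the geometric means Ube2c was 7.11-fold and Birc5 6.71-fold lower in the 4.

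Mki67, the proliferation marker Ki-67, read 780, 57.7, 1214 and 2612, against 1251 to 4608 (median 2530.0). Its value in Anti PDL1+CTLA4 2 lay inside the range of the 8, so the groups overlapped, while Anti CTLA4 2 held 22 recovered counts, no more than the highest negative probe of that library. Exo1, a nuclease of DNA mismatch repair and recombination, read 50.4, 73.5, 157 and 235, against 286 to 588 (median 379). Ube2t, a ubiquitin-conjugating enzyme of the Fanconi pathway, read 63.0, 60.4, 220 and 303, against 318 to 491 (median 380.1). Over the 761 panel genes 39 were lower and 196 higher. Of the 20 DNA repair genes measured, 4 were lower and 3 were higher, so the list leaned to the lower side relative to the panel. Mgmt, 1 of those 3, which removes methyl groups from guanine, read 752, 491, 272 and 267, against 66.5 to 170 (median 113).

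With floor values as listed, the mean log2 level of the cell cycle list was 6.77, 5.94, 8.16 and 8.77 in the 4 libraries. In the 8 others it lay between 9.08 and 9.51, a range of less than 1 log2 unit that held IgG and antibody-treated libraries alike. Anti PDL1 2 and Anti CTLA4 2 had the lowest 2 levels and Anti PDL1+CTLA4 2 the highest of the 4, the reverse of the hepatocyte score except between the top 2. Anti PDL1 3, whose hepatocyte score lay between the 4 and the rest, had a cell cycle level of 9.11, inside the range of the 3 IgG libraries, 9.08 to 9.24.

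Cell cycle inhibitors and growth regulators lay on both sides. Cdkn1a, the p53 target p21, read 345, 268, 1007 and 819, against 1232 to 3382 (median 2245). Cdkn1c, the inhibitor p57, read 206, 218, 1598 and 724, against 1958 to 4153 (median 2559). Both inhibitors were thus lower in the 4, as the genes of dividing cells were. Ccnd1, cyclin D1, was higher, at 2895, 4367, 2783 and 1497 against 436 to 957 (median 648). It overlapped after total scaling. Of the list of 14 measured p53 targets, cyclins and inhibitors, 4 were higher (28.6%, against 25.8% of the panel) and 3 lower (21.4%, against 5.12%). The median difference of that list was -0.47. Hmga1, a chromatin protein of dividing and tumour cells, read 324, 391, 1861 and 2323, against 2607 to 3308 (median 3051). H2afx, a histone variant that marks DNA breaks, read 901, 850, 2779 and 2375, against 3187 to 5489 (median 4412).

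Transporters and enzymes that feed growth were lower in part. Slc7a5, the large neutral amino acid transporter, read 151, 226, 1025 and 913, against 1481 to 2825 (median 1887). Slc1a5, the glutamine transporter, was at 54.6, the floor, 243 and 366, against 407 to 687 (median 599.5). Hk2, the hexokinase of tumour cells, read 126, 63.0, 279 and 244, against 604 to 976 (median 828). It was the 1 lower member of 13 glycolysis genes (7.69%, against 5.12% of the panel), and 2 were higher (15.4%, against 25.8%). Pfkm, the muscle form of phosphofructokinase, was 1 of those 2, at 319, 433, 218 and 134 against 31.5 to 91.6 (median 70.2), and it overlapped under each of the 3 other scalings. Of 8 genes of glutamine and amino acid metabolism 3 were lower (37.5%, against 5.12% of the panel) and 1 higher (12.5%, against 25.8%). The mean level of that list was lower in each of the 4, at 7.49, 7.47, 8.44 and 8.56, with the lowest of the 8 at 8.65. Tfrc, the transferrin receptor, which imports iron, read 473, 262, 567 and 977, against 1366 to 2927 (median 1805). Tfrc is also 1 of the 20 housekeeping genes, of which 3 were higher and 2 lower in the 4, and 0 and 7 after median scaling. Over the 761 panel genes the counts were 196 and 39, and 79 and 85 after median scaling.

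Ldha, lactate dehydrogenase A, the gene with the most counts in 7 of the 8 other libraries, was named after its values were seen. It read 35652, 49769, 51828 and 45614, against 43808 to 72840 (median 57165), so the groups overlapped. Its share of the recovered counts did not overlap, at 2.17 to 5.56% in the 4 and 6.88 to 13.6% in the 8. Apoe was the gene with the most counts in the 4 libraries and in Anti PDL1 3.

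Myc, the oncogene of the model, was not lower in the 4 libraries. It read 523, 215, 171 and 181 normalized counts, against 80.6 to 146 (median 123) in the 8, a difference of 1.05 log2 units under the authors' scaling. It was 0.48 after median scaling and 0.01 after total scaling, with overlap in both. Whether the Myc probe reads the tumour-driving MYC is not stated in the labels. Mxi1, a Myc antagonist, read 725, 898, 771 and 830, inside the range of the 8, 654 to 1138.

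The list of 6 biliary and progenitor genes held 1 lower member (16.7%, against 5.12% of the panel) and 0 higher ones (against 25.8%). Cdh1, E-cadherin, read 540, 955, 1484 and 819, against 2050 to 2874 (median 2468) with no overlap under any of the 4 scalings. Epcam, an adhesion molecule of biliary and progenitor epithelium and of some tumours, read 88.2, 78.7, 259 and 50.2, against 236 to 973 with a median of 667. Anti CTLA4 1 overlapped the lowest of the 8 for Epcam. Serpinh1, a collagen chaperone, read 385, 352, 861 and 1043, against 1413 to 4259 (median 2506). Col4a5, a basement membrane collagen, was higher, at 626, 320, 263 and 201 against 54.0 to 116 (median 68.3). The list of 19 fibroblast and matrix genes held 2 higher and 2 lower members (10.5% each, against 25.8% and 5.12% of the panel). Its mean level lay between 6.39 and 6.41 in the 4 and between 6.25 and 6.41 in the 8.

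MHC class I genes were higher in the 4 libraries under the authors' scaling. Of the 13 measured, 11 were higher in each of the 4 than in all 8 others (84.6%) and 0 were lower, with a median difference of 1.97 log2 units. Over the panel 25.8% were higher, and 36.5% among panel genes above the floor in all 12 libraries, where 12 of the 13 lay. After median scaling 8 of the 13 were higher, where 79 of the 761 panel genes were, and after total scaling 1, where 37 of the 761 were. The median difference stayed above 0, at 1.41 and 0.93. B2m, the light chain of all class I molecules, read 134400, 40021, 31771 and 38292, against 2406 to 30071 (median 6952), the highest of which was Anti PDL1 3. The 4 and the 8 came close for B2m, and they overlapped under the 3 other scalings. H2-K1, a class I heavy chain named after its values were seen, was listed at the floor in all 12 libraries and carries no order.

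Tap2, a subunit of the peptide transporter that feeds class I molecules, read 2009, 879, 1329 and 900, against 84.7 to 319 (median 207). It was the 1 class I gene whose values did not overlap after total scaling. Psmb9, a subunit of the immunoproteasome, read 4274, 850, 1922 and 1203, against 122 to 724 (median 289), and overlapped after total scaling. Tap1, the other transporter subunit, named after its values were seen, read 1927, 357, 913 and 466, against 57.3 to 348 (median 129.8), so that Anti CTLA4 2 lay just above the highest of the 8, and it overlapped after median scaling. The IgG libraries were at the low end for all 3 genes, with Tap2 at 114 to 184, Psmb9 at 122 to 172.5 and Tap1 at 57.3 to 77.4.

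Interferon-response genes were higher in part under the authors' scaling. Of 25 measured, 12 were higher in the 4 (48.0%) and 0 lower. Among all panel genes 25.8% were higher, and 36.5% among those above the floor in all 12 libraries, where 22 of the 25 lay. After median scaling 5 of the 25 were higher, where 79 of the 761 panel genes were, and after total scaling 2 were, where 37 of the 761 were, with 0 lower in both. The median difference was 1.46, 0.90 and 0.42 in those scalings. Ifih1, the RNA sensor MDA5, read 1324, 528, 402 and 346, against 51.9 to 225 (median 145). Herc6, an ISG15 ligase in mouse, read 798, 194, 268 and 208, against the floor to 140 (median 79.2). Isg15, the ubiquitin-like modifier itself, named after its values were seen, read 2916, 478, 546 and 441, against 108 to 420 (median 204), and overlapped after median scaling. Cxcl10, a chemokine for T cells named after its values were seen, had the lower mean in the 4, at 458, 84.0, 414 and 208 against 153 to 909 (median 471), and overlapped.

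The 2 libraries with the highest hepatocyte scores lay apart in these genes. Their scores were 14.31 and 14.13, yet the mean log2 level of the interferon list was 9.44 in Anti PDL1 2 and 7.80 in Anti CTLA4 2, and that of the class I list was 10.79 and 9.49. Anti PDL1 2 had the highest value of the 4 in 10 of the 11 higher class I genes and in 10 of the 12 higher interferon genes. Anti CTLA4 2 had the lowest value of the 4 in 6 of those 11 and in 4 of those 12, and Anti PDL1+CTLA4 2 in 4 and 5. In the 8 others the interferon level ran from 6.53 to 7.77, and the highest was Anti PDL1+CTLA4 1, whose hepatocyte score was 10.31. That level is close to the 7.79 of Anti PDL1+CTLA4 2, a library with a score of 12.67. Between the selected library and the rest of its own treatment group, the median difference of the interferon list was 0.22 in the combination group, 2.22 under anti-PDL1 and, for 2 libraries against 1, 0.999 under anti-CTLA4.

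**Figure D4:**
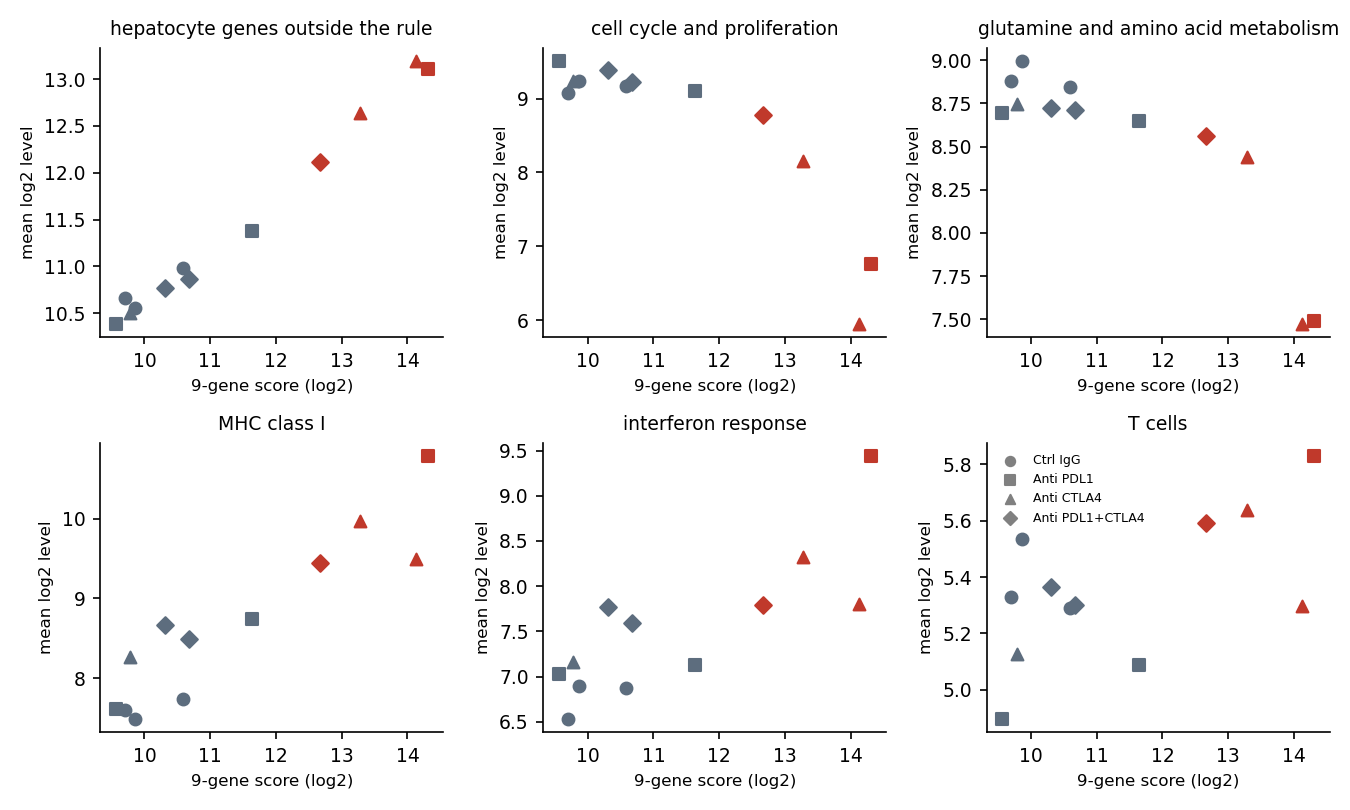
Mean log2(normalized count + 1) of 6 gene lists (vertical) against the 9-gene score (horizontal) in each library, with the 4 highest in red, the 8 others in grey, and the marker shape giving the treatment. Hepatocyte genes outside the 9 run with the score, cell cycle genes are lowest in the 2 top libraries at 5.94 and 6.77, and the interferon list separates those 2 libraries at 9.44 and 7.80. Floor values enter the means as listed.

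MHC class II genes, which mark antigen-presenting cells, did not separate the 4 from the 8: of 9 measured, 0 were higher and 0 lower (against 25.8% and 5.12% of the panel). H2-Ab1, a class II chain, read 7402, 591, 1807 and 2795, against 156 to 2740 (median 471). Cd74, the class II invariant chain, read 23179, 3339, 9041 and 11110, against 777 to 9524 (median 2807). Anti CTLA4 2 and Anti CTLA4 1 lay inside the range of the 8 for both genes, Anti PDL1 2 lay above it, and Anti PDL1+CTLA4 2 lay just above it for H2-Ab1 and above it for Cd74. The mean level of the list was 9.35, 7.16, 8.37 and 8.49 in the 4 and 6.73 to 8.33 in the 8, with IgG at 6.73 to 7.07.

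Macrophage genes mostly overlapped. Of 13 measured, 3 were higher (23.1%) and 0 lower, with a median difference of 0.81, which was -0.23 after total scaling. The share of higher genes was 25.8% over the panel and 36.5% among panel genes above the floor in all 12 libraries, where all 13 lay. Mrc1, the mannose receptor, which macrophages and liver sinusoidal endothelium share, read 2929, 1934, 1565 and 1241, against 355 to 1161 (median 479). Cd68, a lysosomal protein of macrophages, read 943, 346, 762 and 1025, within or below the range of the 8, 655 to 1454. Marco, a scavenger receptor and the 1 Kupffer cell marker of the list on the panel, read 803, 118, 830 and 662, against 22.1 to 343 (median 60.2). Anti CTLA4 2 stood apart from the other 3 for Marco and overlapped the 8. Siglec1, a receptor of tissue macrophages, had the same shape, at 1328, 320, 654 and 461 against 95.2 to 400 (median 193). C1qa, a complement subunit made by macrophages, overlapped, while C2, made largely by liver, read 3112, 2538, 1612 and 981, against 266 to 823 (median 433). Mrc1 and C2 both overlapped under the 3 other scalings.

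Of 16 endothelial genes 7 were higher (43.8%) and 0 lower, against 25.8% higher over the panel and 36.5% among panel genes above the floor in all 12 libraries, where 13 of the 16 lay. The median difference was 0.69, and it was 0.12 after median scaling and -0.35 after total scaling. Kdr, the main VEGF receptor, read 1154, 963, 661 and 454, against 136 to 321 (median 174), and did not overlap after total scaling either. Myct1, an endothelial gene, read 273, 381, 250 and 172, against 66.3 to 108 (median 76.7), and overlapped after total scaling. Pecam1, a marker of all endothelium named after its values were seen, read 525, 362, 310 and 324, and overlapped the 8, which ran from 206 to 373. The mean level of the list was 7.43, 7.51, 7.27 and 7.10, against 6.46 to 6.88, under the authors' scaling, and the direction of its median depended on the scaling.

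T cell, natural killer cell and B cell genes had low counts. Cd8a, the CD8 alpha chain, Pdcd1, which encodes PD-1, and Ctla4 itself were at the floor in all 4 libraries, where the floor allows up to 35.9 to 52.5 normalized counts. In the 8 others they reached 37.5, 55.0 and 52.9, so no difference was detectable at this depth. Of 16 T cell genes 3 were higher under the authors' scaling (18.8%, under the 25.8% of the panel), 1 was after median scaling and 0 were after total scaling. Of the 761 panel genes 79 and 37 were higher after median and total scaling. Icos, a costimulatory receptor, read 174, 113, 144 and 104 normalized counts, against 32.9 to 75.0 (median 46.4), but 43 to 83 recovered counts in the 4 against 33 to 112 in the 8. Lck, the T cell kinase, read 327.8, 262, 175 and 174, against 55.8 to 134 (median 90.5), and overlapped on recovered counts, at 78 to 156 against 59 to 156.

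Klrk1, which encodes NKG2D, read 246, 68.2, 96.7 and 95.0, against the floor to 64.0 (median 21.5). Ncr1, the natural killer receptor NKp46, read 128, 86.6, 78.7 and 113, against 33.1 to 59.0 (median 40.5). Ms4a1, which encodes CD20, read 54.6, 68.2, 80.9 and 48.4, against the floor to 34.5 (median at the floor), which is 26 to 36 recovered counts in the 4, close to their highest negative probes. Klrk1, Ncr1 and Ms4a1 overlapped under the 3 other scalings. The part of the library factors in these differences was not tested beyond the scalings given. Fpr1, a neutrophil receptor, read 290, 178, 191 and 199, against 28.9 to 153 (median 62.0), and overlapped under the 3 other scalings. Cxcl1, a chemokine for neutrophils, read 1143, 1488, 780.1 and 362, against 98.5 to 539 (median 228), so that the lowest of the 4 lay inside the range of the 8.

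Among checkpoint genes, Cd274, which encodes PDL1, read 424, 89.2, 216 and 174, against 69.5 to 200 (median 103), with overlap. Tnfrsf14, the receptor HVEM, read 1458, 774, 1054 and 640, against 142 to 388 (median 218). Lgals9, galectin-9, read 14842, 9661, 6587 and 6522, against 2050 to 3847 (median 3058). These were the 2 higher members of 16 (12.5%, against 25.8% of the panel). After total scaling Lgals9 did not overlap and Tnfrsf14 did. Spp1, osteopontin, read 845, 210, 171 and 273, against 56.2 to 371 (median 146), with overlap.

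Hepatocyte genes outside the 9, MHC class I and interferon-response genes had medians above 0 under the authors', the median and the total scaling, and cell cycle, glycolysis, glutamine and amino acid, DNA repair and p53 lists had medians below 0 under all 3. Macrophage, neutrophil, endothelial, complement and MHC class II lists had medians above 0 under the first 2 and below 0 after total scaling.

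**Figure D5:**
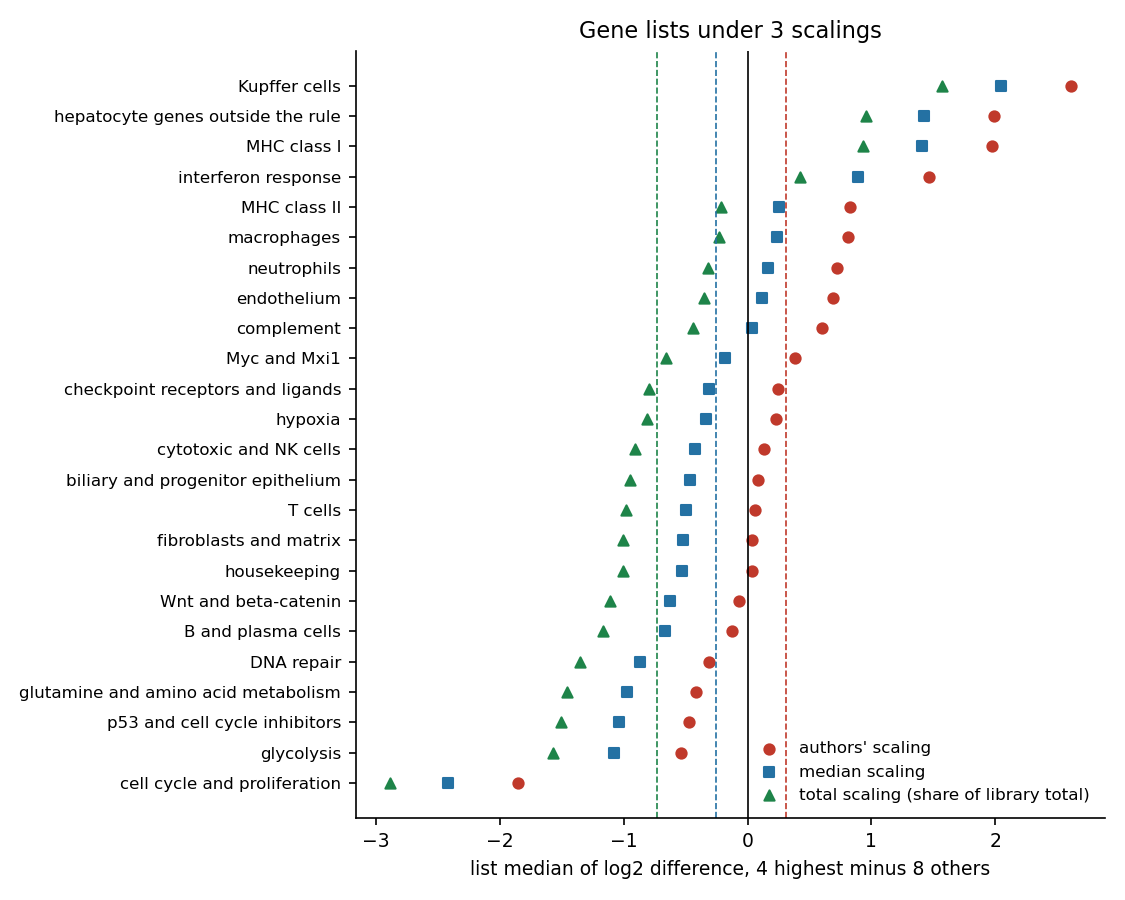
Median log2 difference between the 4 libraries and the 8 others for each gene list under the authors' scaling (red circles), median scaling (blue squares) and total scaling, which divides recovered counts by their library total (green triangles), with the median of all 761 genes as a dashed line of the same colour. The median of all genes moves from 0.31 to -0.25 and -0.73, and the cell cycle list lies lowest in all 3. Floor values were scaled with the others.

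The treatment groups come from the labels, and each antibody group was set against IgG with limma, which fits a model to every gene and adjusts p over all 770. For the 9 genes, whose values chose the 4 libraries, the fold changes are given as a description with no test. The log2 fold changes of the 9 genes were 1.86 to 2.94 under anti-CTLA4, 1.16 to 2.58 under anti-PDL1 and 0.56 to 1.96 under the combination. The median standard error of the 9 was 1.39 log2 units, against 0.405 over all 770 genes. Tdo2, for example, had a log2 fold change of 2.68 under anti-CTLA4 with a standard error of 1.68.

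The 4 libraries were all treated and were selected for high values of the 9 genes, so the fold changes of these genes had to fall without them. Under anti-CTLA4, where 1 library remained and was assumed to vary like the other groups, their log2 fold changes ran from -0.81 to 0.34. Under anti-PDL1 they ran from -0.06 to 1.21 and under the combination from -0.22 to 1.16. Ube2c had a log2 fold change of -2.24 ± 1.28 (SE) under anti-CTLA4 over all libraries (limma, adjusted p of 0.309). It was named for its low values in the 4, so its 0.07 without them is a description with no test.

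Over the panel, limma called 20 genes under anti-CTLA4 (2.6%), 0 higher and 20 lower, 23 under anti-PDL1 (2.99%), 2 higher and 21 lower, and 22 under the combination (2.86%), 1 higher and 21 lower. Of the genes called, 0, 2 and 0 lay above the floor in all 12 libraries, so nearly all calls were of genes at the floor in at least 1 library. The 3 comparisons share the IgG libraries. Among the 519 genes above the floor in all 12 libraries, a fit of their own called 0 genes in each comparison, with 91, 79 and 48 at an unadjusted p under 0.05. Without the 4 libraries, a subset set by the measured values, 25 genes were called under anti-PDL1 and 12 under the combination. Under anti-CTLA4 1 library remained, so no count is given.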

How the data were processed

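Gene expression in 12 libraries, 1 per mouse and 3 per treatment, was taken from the deposited table of 770 panel genes and 14 control probes. The authors deposited signal values, nCounter barcode counts that the values show to be multiplied by 1 factor per library and floored at 20. No source used here names their normalization method or software. The factor was the largest step of which values above the floor were whole multiples within 0.0075 (99.84 to 100.0% of them). Names matched the RefSeq table of GRCm38.p6 as 764 current symbols and 6 synonyms. That table served for names alone.

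Levels are log2(value + 1). The 4 highest libraries by the mean of 9 genes were compared with the 8 others by overlap of values, with no test. Folds are ratios of geometric means of value + 1. limma 3.58.1 in R 4.3.3 (trend, 1 mean per treatment, 12 libraries, two-sided, Benjamini-Hochberg over 770 genes) tested treatments. It and the step search were tested on simulated data.

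The members and lists were chosen with earlier results of these data known. Named genes are the 9, the 12 highest and 12 lowest differences among genes without overlap and above the floor in all 12 libraries, the 2 largest absolute differences of each of 25 lists, and 12 fixed genes. Some genes that this rule names are not reported here. Promoters were not analysed here, and no count test was run, since the values are not counts. Alternatives changed the pseudocount, filter, scaling, libraries compared, ranking and model terms.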

Additional observations from a re-analysis of the deposited data

How the results depend on the processing

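The count of 196 higher genes was 196 with floor values as listed, 186 above the floor, 200 with housekeeping scaling, 227 against the 5 other treated libraries, 160 with a difference of at least 1 and 195 with the 3 highest against 9. It became 79 after median scaling, 98 with the 5 highest against 7, 37 as shares of each library's total (total scaling) and 10 with no scaling, the last 2 added after the data were seen. The count of 39 lower genes became 85, 27, 138 and 174 in those 4 settings, and 36 with housekeeping scaling. Only genes above the highest negative probe in all 12 libraries, also added later, gave 183 and 29. Leaving out each library gave 197 to 248 higher and 39 to 59 lower genes, 59 without Anti PDL1+CTLA4 2.

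List medians changed sign in the following settings. The cause was not tested. Floor values were scaled with the others, so H2-K1, at the floor in all 12 libraries, gave -1.04 after total scaling. Only 6 of 16 T cell genes and 3 of 14 cytotoxic and NK genes were never at the floor. A changed sign in these 2 lists therefore cannot be read as a lower level. Of the 20 housekeeping genes, 19 were never at the floor. Against the other treated libraries B and plasma cells gave 0.11. After median scaling hypoxia gave -0.34, T cells -0.50, cytotoxic and NK cells -0.42, checkpoint genes -0.31, fibroblasts and matrix -0.52, biliary epithelium -0.46, Myc and Mxi1 -0.19 and housekeeping -0.53. After total scaling complement gave -0.44, hypoxia -0.81, macrophages -0.23, neutrophils -0.32, T cells -0.98, cytotoxic and NK cells -0.91, checkpoint genes -0.80, MHC class II -0.21, endothelium -0.35, fibroblasts and matrix -1.01, biliary epithelium -0.95, Myc and Mxi1 -0.66 and housekeeping -1.01.

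limma's calls under anti-CTLA4, anti-PDL1 and the combination were 20, 23 and 22. They became 54, 48 and 40 after median scaling, 0, 0 and 0 among genes above the floor in all 12 libraries, where fewer genes were tested, and 18, 15 and 20 after quantile normalization. Without the 4 libraries, a subset set by the measured values, anti-PDL1 calls were 25 and combination calls 12. With the 9-gene mean, the score that chose the 4 libraries, as a covariate the calls were 14, 47 and 36. That covariate comes from the measured values, so these counts are given as a description. A pseudocount of 10 gave 16, 21 and 19. Leaving out each library gave 12 to 45, 14 to 32 and 12 to 31. Anti-CTLA4 calls were 45 without Anti PDL1 2, 12 without Anti CTLA4 2 and 32 without Ctrl IgG 3. Anti-PDL1 calls were 14 without Anti PDL1 2, 15 without Anti PDL1 3 and 15 without Anti PDL1+CTLA4 1, and combination calls were 12 without Anti PDL1+CTLA4 1 and 14 without each of its other libraries.

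With the replicate number as a block (replicate block) the calls were 20, 21 and 14. Deviations of same-numbered libraries correlated at -0.61 to 0.75 over 18 pairs (median 0.25), 11 of them over 0.1. Over 36 pairs of different number they correlated at -0.85 to 0.84 (median -0.08), 15 of them over 0.1. The numbers were not taken to pair the mice. Anti PDL1 2, Anti CTLA4 2 and Anti PDL1+CTLA4 2, all among the 4, correlated at 0.67 to 0.75. Whether the score is tied to the replicate number was not tested. Promoter motifs, planned as a description, were not run. At this depth genes at the floor in all 4 libraries, among them Cd8a, Pdcd1 and Ctla4, could not be ordered within the 4.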
